A study of Homo sapiens with 6 samples.

Results

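The genes described here are 39 of the 58825 in the deposited table of human MHCC97H cells, chosen by name as feedback inhibitors of the kinase ERK and as immediate early genes, which are transcribed within minutes of ERK activation. They comprise 15 feedback inhibitors of the DUSP, SPRY and SPRED families, 17 transcription factors of the FOS, JUN, EGR, ETV, KLF and ATF groups together with SRF, and 7 other targets. RNA was sequenced from MHCC97H, an established hepatocellular carcinoma line, in 6 libraries. The 3 libraries labelled shPTBP1 came from PTBP1 knockdown cells, which carry a short hairpin RNA against the splicing regulator PTBP1, and the 3 labelled shControl came from cells listed as wild type with a control hairpin. The labels state neither which PTBP1 hairpin a library carries nor whether the 3 libraries of a group are separate cultures, so the tests measure the spread between these libraries, which may be technical. The study asked which transcripts and splicing events follow PTBP1, and it placed the MAPK/ERK pathway among those of interest.

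ERK is the last kinase of the RAS-RAF-MEK cascade. Active ERK phosphorylates ETS-family partners of SRF, which then switch on FOS, EGR1 and other immediate early genes without new protein synthesis. The same signal raises transcription of its own brakes: DUSP phosphatases remove phosphate from ERK or related kinases, and SPRY and SPRED proteins act upstream on RAS and RAF. Transcript levels of these genes are therefore often read as a record of ERK output, although stress kinases, serum and handling also act on many of them.

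Promoter sequence is shown for 3 of the transcription factors on which the values below turn, EGR1, FOS and JUND, because FOS had the smallest unadjusted p of the listed genes and the levels of EGR1 and JUND differed widely between libraries. The stretches are from RefSeq on GRCh38.p14, are written 5′ to 3′ on the strand of the gene, and end upstream of the start site. Capitals in EGR1 (chr5:138465339-138465439, plus strand) mark a pair of CArG boxes, the binding motif of SRF. Capitals in FOS (chr14:75278728-75278827, plus strand) mark the core of a cyclic AMP response element, TGACG, and a TATA motif, TATAAA. Capitals in JUND (chr19:18281688-18281837, minus strand) mark a whole cyclic AMP response element, TGACGTCA.
EGR1: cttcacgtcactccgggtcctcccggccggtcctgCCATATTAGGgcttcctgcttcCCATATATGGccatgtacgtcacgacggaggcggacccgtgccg
FOS: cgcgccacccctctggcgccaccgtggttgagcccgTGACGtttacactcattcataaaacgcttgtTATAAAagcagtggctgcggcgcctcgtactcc
JUND: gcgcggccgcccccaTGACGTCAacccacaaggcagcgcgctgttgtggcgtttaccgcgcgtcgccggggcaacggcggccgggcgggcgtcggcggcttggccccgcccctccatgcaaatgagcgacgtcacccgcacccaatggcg
Promoter windows, 250 bases before to 50 after a start site, were at hand for 31 of the 39 genes. Only the 250 bases before the start were searched. A listed gene counted if any of its promoters held the motif, whereas the shares over all are of single promoters. On either strand, a CArG box stood in EGR1, EGR2 and SRF, 3 of the 31, and in 1.16% of all 35116 promoters. The TATA motif was read on the strand of the gene only. It was found in 6 of the 31 (DUSP1, SPRED2, FOS, FOSB, JUNB and ATF3) and in 6.80% of all promoters. TGACGTCA was found in 4 of the 31 (DUSP1, DUSP8, JUND and EPHA2) and in 1.65% of all. Its core TGACG, which overlaps it, was found in 18 of the 31 and in 21.2% of all. The AP-1 motif TGANTCA, the site of FOS and JUN dimers, was found in SPRED3 alone among the 31 and in 6.57% of all. Each match is a description of letters in a window, and no binding was measured. Sites further upstream were not searched, so a gene not named for a motif, such as FOS for the CArG box, may carry it there.

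Summed counts per library were between 68704509 and 85317970. Levels within a gene are given as CPM, counts per 1e6 counts after TMM scaling, and levels between genes as FPKM, fragments per kilobase and per 1e6 fragments as deposited, which allow for gene length. Positions of genes are on hg38. PTBP1 itself (chr19:797075-812327) had 17.3, 16.9 and 18.0 FPKM in the libraries labelled shPTBP1, against 21.2, 16.4 and 27.4 FPKM in those labelled shControl. Its log2 fold change had a value of -0.29 (standard error, SE, 0.18, adjusted p = 0.953 by edgeR), within the spread of the shControl libraries. PTBP2, a paralog that PTBP1 is known to repress, had 59.0, 62.6 and 50.5 CPM in shPTBP1, against 31.2, 28.7 and 9.20 CPM in shControl, with no overlap and an edgeR log2 fold change of 1.32 (SE 0.41, adjusted p = 0.718). Directions below are between libraries as labelled. Of 10 hepatocyte markers, the defining ALB, AFP, APOB and TTR were at 0 in all 6 libraries, and KRT8 and KRT18 alone were above 0 in all 6. Summed red cell markers were 843, 758 and 1.13 CPM of the library total in shPTBP1 1, 2 and 3, against 1273, 811 and 1.35 CPM in shControl 1, 2 and 3. Both libraries numbered 3 thus held almost none of the red cell transcripts that the other 4 carried. Leukocyte markers followed the same numbers, at 25.1, 21.1 and 3.97 CPM in shPTBP1 against 33.0, 20.7 and 3.70 CPM in shControl. Stromal and endothelial markers, of which 7 of 8 were above 0 in all 6 libraries, summed to 482, 464 and 357 CPM in shPTBP1 against 274, 312 and 346 CPM in shControl. Most of this sum was 2 collagen genes. COL3A1 had 349, 334 and 262 CPM in shPTBP1 against 163, 208 and 206 CPM in shControl, and COL1A1 had 74.1 to 111 CPM. COL1A2 was at 0 in all 6 libraries, and DCN, VWF, PECAM1 and CDH5 were between 0.0582 and 6.11 CPM. The labels name MHCC97H cells alone, so the source of the red cell and leukocyte transcripts is not stated, and it was not tested. The part of all these marker transcripts in the results below was not tested either. In bulk libraries, fewer cells of a type cannot be told apart from less RNA per cell. Each count of genes at an unadjusted p under 0.05 is also given for the libraries numbered 1 and 2 alone.

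None of the 39 genes passed the test between shPTBP1 and shControl. Counts were fitted with edgeR's quasi-likelihood test over all genes that passed its filter on low counts, and a gene passed the test at a Benjamini-Hochberg adjusted p under 0.05. The filter kept 36 of the 39 genes. EGR2, EGR3 and EPHA4, with counts between 0 and 8 in every library, did not pass it. A count of 0 allows up to 3 counts, or 0.0352 to 0.0437 CPM, for counting error only and if each fragment added 1 count. These limits are too tight if each fragment added 4 counts. Of all 19393 genes tested 6 passed, or 0.0309%, and 0 of the 36 did. At an unadjusted p under 0.05 there were 3 of the 36 (8.33%), FOS, KLF4 and PHLDA1, beside 5.69% of all genes tested. All 3 had higher levels in shPTBP1, where the share over all genes was 3.58%. DESeq2 also gave 0 of the 39 past the adjusted threshold and 3 at the unadjusted one, beside 165 and 1365 of all 30866 genes. With limma on log2(FPKM + 1) these counts were 0 and 2 of 31, beside 9 and 830 of all 12018 genes. With limma on log2(FPKM + 0.1) they were again 0 and 2 of 31, beside 6 and 823 of 12018. The log2 fold changes were positive in 22 and negative in 14 genes, with a median of 0.075 beside -0.013 over all genes tested. With shPTBP1 1, 2 or 3 left out in turn, 0 of 36 were at an unadjusted p under 0.05 in each of these smaller fits. Over all genes these fits gave 820 of 20145, 763 of 20149 and 1022 of 20253. Of the 36, 2 were without shControl 1, beside 883 of 20303 genes, and 1 without shControl 2, beside 844 of 20170. Without shControl 3 there were 9, where the share over all genes was 16.6%.

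DUSP1 was the most abundant, at a mean of 147 FPKM over the 6 libraries, higher than 99.0% of the genes tested. IER3 at 63.9, JUND at 39.98 and DUSP16 at 33.2 FPKM came next, followed by JUNB at 24.6, IER5 at 23.5 and IER2 at 21.8 FPKM. In all, 10 of the 39 genes averaged above 10 FPKM, 21 lay between 1 and 10 FPKM and 8 lay under 1 FPKM. The median of the 36 was 3.39 FPKM, beside 2.12 FPKM over all genes tested. EGR1 at 0.295 FPKM and FOSB at 0.177 FPKM were the lowest of the transcription factors that passed the filter, and FOS averaged 1.57 FPKM. Neighbours in this order often did not differ beyond their spread, as for JUNB (15.7 to 35.8 FPKM over the 6 libraries), IER5 (19.3 to 25.5 FPKM) and IER2 (15.2 to 26.3 FPKM).

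**Figure D1:**
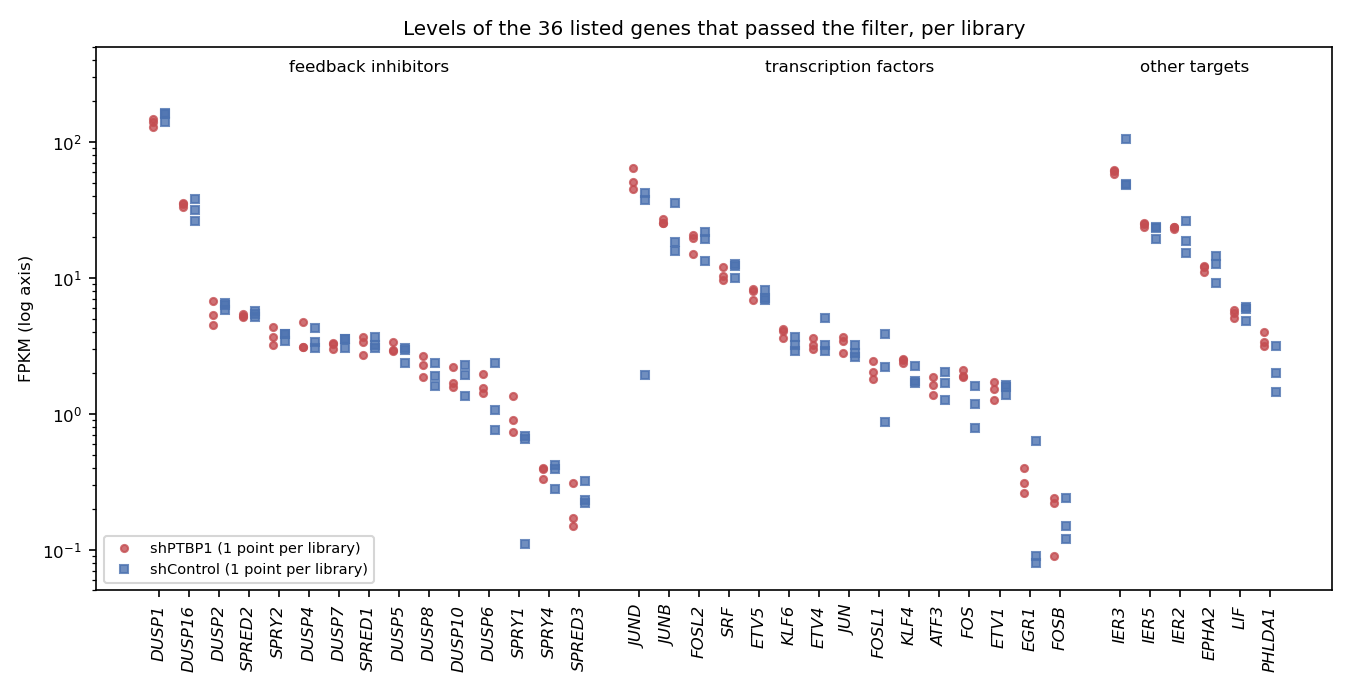
FPKM on a log axis of the 36 genes that passed the filter, in order of mean level within each role, with 1 point for each shPTBP1 library (circles) and each shControl library (squares). DUSP1 stands highest at 128 to 164 FPKM, and single shControl squares lie far below the rest for JUND at 1.92 FPKM and SPRY1 at 0.11 FPKM.

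No feedback inhibitor passed the test. All 15 were kept by the filter, 0 of the 15 reached an adjusted or an unadjusted p under 0.05 in edgeR, beside 0.0309% and 5.69% of all genes tested, and 9 log2 fold changes were positive and 6 negative. At an unadjusted p under 0.05 there were 2 of the 15 in the libraries numbered 1 and 2, beside 17.7% of all genes, and 3 of the 15 without shControl 3, beside 16.6%. Their median was 0.028, with a range of -0.24 for SPRED3 to 1.06 for SPRY1. In 12 of the 15 the highest library was less than 2-fold above the lowest. The median over all genes tested was -0.013.

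DUSP1 (chr5:172768096-172771195), a nuclear phosphatase of ERK, JNK and p38, had 341, 353 and 313 CPM in shPTBP1, against 386, 390 and 329 CPM in shControl. The groups overlapped, with shControl 3 below shPTBP1 1 and 2. Its log2 fold change was -0.13 (SE 0.11, adjusted p = 0.960 by edgeR). DUSP1 supplied between 91.3% and 93.5% of the summed FPKM of the 4 nuclear inducible phosphatases DUSP1, DUSP2, DUSP4 and DUSP5 in every library. That sum was 154, 159 and 140 FPKM in shPTBP1, against 174, 176 and 154 FPKM in shControl.

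DUSP16 (chr12:12474210-12562383), a phosphatase with preference for JNK and p38, had 240, 244 and 230 CPM in shPTBP1, against 180, 211 and 252 CPM in shControl. The shPTBP1 libraries lay close together, and shControl held both the lowest and the highest library. Its log2 fold change was 0.15 (SE 0.14, adjusted p = 0.972 by edgeR). DUSP16 made up 87.6% to 90.7% of the summed FPKM of DUSP8, DUSP10 and DUSP16, the phosphatases known mainly for JNK and p38.

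DUSP6 (chr12:89347235-89352501), a cytosolic phosphatase selective for ERK and commonly used as its readout, had 9.02, 7.09 and 6.62 CPM in shPTBP1, against 4.93, 3.48 and 10.5 CPM in shControl. The shControl libraries 1 and 2 were the lowest of the 6 and shControl 3 was the highest. With all 6 libraries its log2 fold change was 0.27 (SE 0.40, adjusted p = 0.982 by edgeR). Within the libraries numbered 1 and 2 it was 0.94 (SE 0.26, adjusted p = 0.186 by edgeR). DUSP7, its cytosolic relative, stayed between 19.95 and 24.04 CPM in all 6 libraries. DUSP6 was 39.3%, 32.1% and 30.0% of the summed FPKM of DUSP6 and DUSP7 in shPTBP1, against 23.0%, 17.6% and 43.6% in shControl.

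SPRY1 (chr4:123396795-123403755), a membrane-associated inhibitor of receptor signalling to RAS, had 3.52, 6.44 and 4.37 CPM in shPTBP1, against 3.07, 3.26 and 0.51 CPM in shControl. Every shPTBP1 library was above every shControl library, and shControl 3 lay 6.03-fold below the next lowest. The log2 fold change was 1.06 (SE 0.63, adjusted p = 0.953 by edgeR), and 0.59 without shControl 3 (adjusted p = 0.380 by edgeR). SPRY2 was the main member of its family, with 68.3% to 88.0% of the summed FPKM of SPRY1, SPRY2 and SPRY4. SPRY2 and SPRY4 had log2 fold changes of 0.028 and 0.084. The 3 SPRED genes, inhibitors of RAF activation, had log2 fold changes of 0.0051 for SPRED1, -0.015 for SPRED2 and -0.24 for SPRED3. SPRED2 was the steadiest of the 36 genes, with its highest library 1.08-fold above its lowest.

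The other feedback inhibitors, DUSP2, DUSP4, DUSP5, DUSP7, DUSP8 and DUSP10, had log2 fold changes between -0.15 and 0.24 and overlapping groups. DUSP4 was highest in shPTBP1 3, at 42.1 CPM, beside 25.5 to 37.3 CPM elsewhere.

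Of the 17 transcription factors, 15 passed the filter. In edgeR 0 of the 15 reached an adjusted p under 0.05 and 2, FOS and KLF4, reached an unadjusted one, beside 0.0309% and 5.69% of all genes tested, and 10 log2 fold changes were positive and 5 negative. In the libraries numbered 1 and 2 the unadjusted count was 5 of the 15, beside 17.7% of all genes, and without shControl 3 it was 4, beside 16.6%. Their median was 0.13, beside -0.013 over all genes tested, and 0.16 without shControl 3.

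FOS (chr14:75278826-75282230), the classic immediate early gene and a partner of JUN in AP-1, had 7.16, 7.94 and 7.43 CPM in shPTBP1, against 3.00, 6.03 and 4.40 CPM in shControl. The shPTBP1 libraries were close together and all above shControl, whose libraries spread 2-fold among themselves. Its log2 fold change came to 0.74 (SE 0.27, unadjusted p = 0.0285, adjusted p = 0.822 by edgeR). The value was also 0.74 when numbers 1 and 2 alone were fitted (SE 0.37, unadjusted p = 0.102, adjusted p = 0.375 by edgeR). It moved with the control libraries, to 0.52 without shControl 1, the lowest library, and to 1.02 without shControl 2. FOS was a small part of its family. FOSL2, which is induced later and lasts longer, made up 83.5%, 83.0% and 76.5% of the summed FPKM of FOS, FOSB, FOSL1 and FOSL2 in shPTBP1, against 79.9%, 89.2% and 79.2% in shControl. FOS made up 7.86%, 8.41% and 9.81% in shPTBP1, against 3.22%, 6.60% and 7.00% in shControl. The family sum was 22.7 ± 2.83 FPKM in shPTBP1 and 21.8 ± 4.26 FPKM in shControl (SD, n = 3 each), a difference within the spread.

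FOSL1 (chr11:65892049-65900526), an AP-1 subunit whose protein ERK stabilises, had 4.09, 4.61 and 5.60 CPM in shPTBP1, against 8.73, 1.94 and 4.83 CPM in shControl. The shControl group held both extremes, and shControl 2 was 2.10-fold below the next lowest library. The log2 fold change was -0.12 (SE 0.49, adjusted p = 0.995 by edgeR) and 0.49 without shControl 1. FOSB, which shares its locus on the opposite strand with ERCC1, was between 0.60 and 1.65 CPM. ERCC1 stood at 40.7 to 52.1 CPM of the library total, and since counting by strand is not stated, reads of the 2 genes may have been mixed.

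JUND (chr19:18279760-18281622), the JUN-family gene usually expressed without stimulus, had 143, 112 and 101 CPM in shPTBP1, against 83.0, 91.7 and 4.15 CPM in shControl. Every shPTBP1 library was above every shControl library, and shControl 3 stood 20.02-fold below the next lowest. The fitted log2 fold change was 0.99 (SE 0.87, adjusted p = 0.967 by edgeR), and 0.44 without shControl 3 (adjusted p = 0.262 by edgeR). In the libraries numbered 1 and 2 it was 0.54 (SE 0.15, adjusted p = 0.185 by edgeR). No other gene of the table overlaps JUND.

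JUNB (chr19:12791486-12793315), an immediate early member of the same family, had 55.6, 58.9 and 56.4 CPM in shPTBP1, against 34.4, 39.6 and 76.0 CPM in shControl. The shPTBP1 libraries lay between the low shControl 1 and 2 and the high shControl 3. A log2 fold change of 0.19 was fitted (SE 0.29, adjusted p = 0.982 by edgeR), and 0.62 without shControl 3 (adjusted p = 0.0826 by edgeR), the smallest adjusted p of any listed gene in the fits that were run. The makeup of the family turned over in that library. JUND made up 69.4%, 62.3% and 60.6% of the summed FPKM of JUN, JUNB and JUND in shPTBP1, against 67.0%, 66.4% and 4.69% in shControl, where JUNB made up 87.5% in shControl 3. The family sum was 92.0, 80.8 and 73.8 FPKM in shPTBP1, against 55.5, 62.9 and 41.0 FPKM in shControl. Every shPTBP1 sum was above every shControl sum, and this sum was given no test. JUN itself was between 2.60 and 3.67 FPKM.

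**Figure D2:**
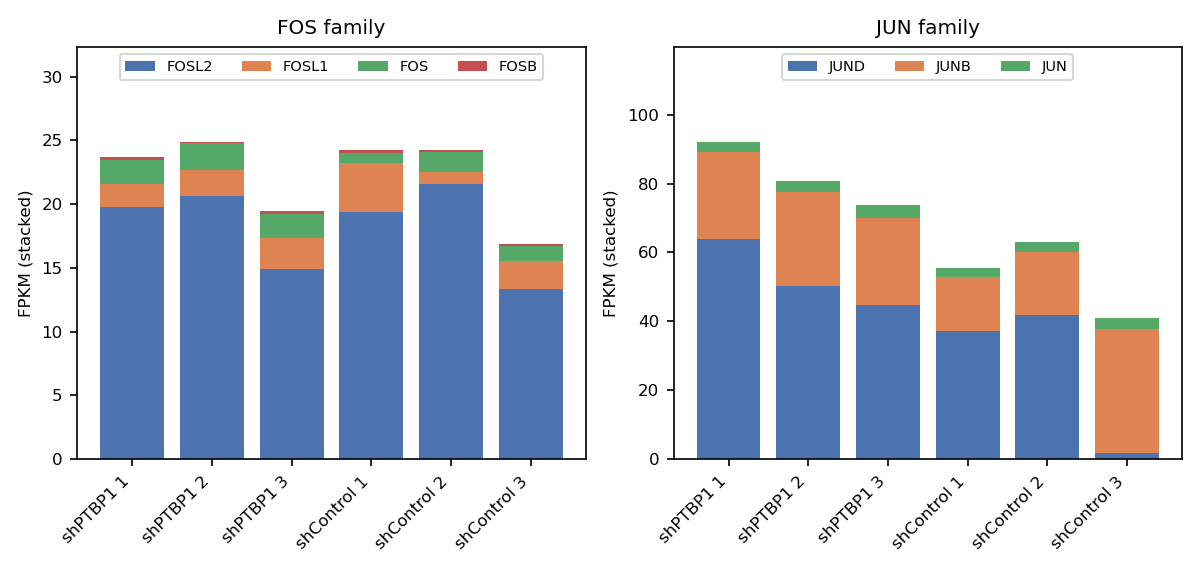
Stacked FPKM of the FOS family (left) and the JUN family (right) in each library, shPTBP1 1 to 3 and then shControl 1 to 3. FOSL2 forms most of the FOS family in every library (76.5% to 89.2%), and JUND forms most of the JUN family except in shControl 3, where it is 4.69%.

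EGR1 (chr5:138465479-138469303), a zinc finger factor and one of the most sensitive transcripts to ERK, was low in all libraries, with 1.51, 0.99 and 1.18 CPM in shPTBP1, against 0.34, 0.31 and 2.31 CPM in shControl. It was lowest in shControl 1 and 2, with 23 and 27 counts, and highest in shControl 3, with 163 counts. Over all 6 libraries its log2 fold change was 0.32 (SE 0.78, adjusted p = 0.992 by edgeR). Within the libraries numbered 1 and 2 it was 1.95 (SE 0.41, adjusted p = 0.138 by edgeR), the largest among the 36 genes in that fit. Its promoter carries both CArG boxes shown above. SRF, which binds that motif, had a log2 fold change of -0.095 (SE 0.15, adjusted p = 0.982 by edgeR) and levels of 48.7 to 63.9 CPM.

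KLF4 (chr9:107484852-107490482), a zinc finger factor of differentiation and growth arrest, had 11.1, 10.4 and 11.2 CPM in shPTBP1, against 7.39, 7.51 and 9.61 CPM in shControl. The groups did not overlap, and shControl 3 was the nearest of its group to shPTBP1. The log2 fold change was 0.41 (SE 0.17, unadjusted p = 0.0447, adjusted p = 0.870 by edgeR), and 0.53 in the libraries numbered 1 and 2 (adjusted p = 0.196 by edgeR). KLF6, a relative, had a log2 fold change of 0.29 (SE 0.15, adjusted p = 0.933 by edgeR) with overlapping groups.

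The 3 ETV factors, ETS-family genes that FGF and ERK signalling induce, had log2 fold changes of -0.0069 for ETV1, -0.15 for ETV4 and 0.099 for ETV5. Their summed level was 12.5 ± 0.46 FPKM in shPTBP1 and 12.6 ± 1.95 FPKM in shControl (SD, n = 3 each). ETV5 was the main member in every library, at 54.7% to 66.1% of the sum. ETV4 was highest in shControl 3, at 20.7 CPM beside 12.1 to 15.1 CPM in the other 5. It lies within the locus of DHX8 on the opposite strand, which had 108 to 123 CPM of the library total. ATF3, a stress-induced factor, had a log2 fold change of -0.0099, and JUN one of 0.22, both with overlapping groups.

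**Figure D3:**
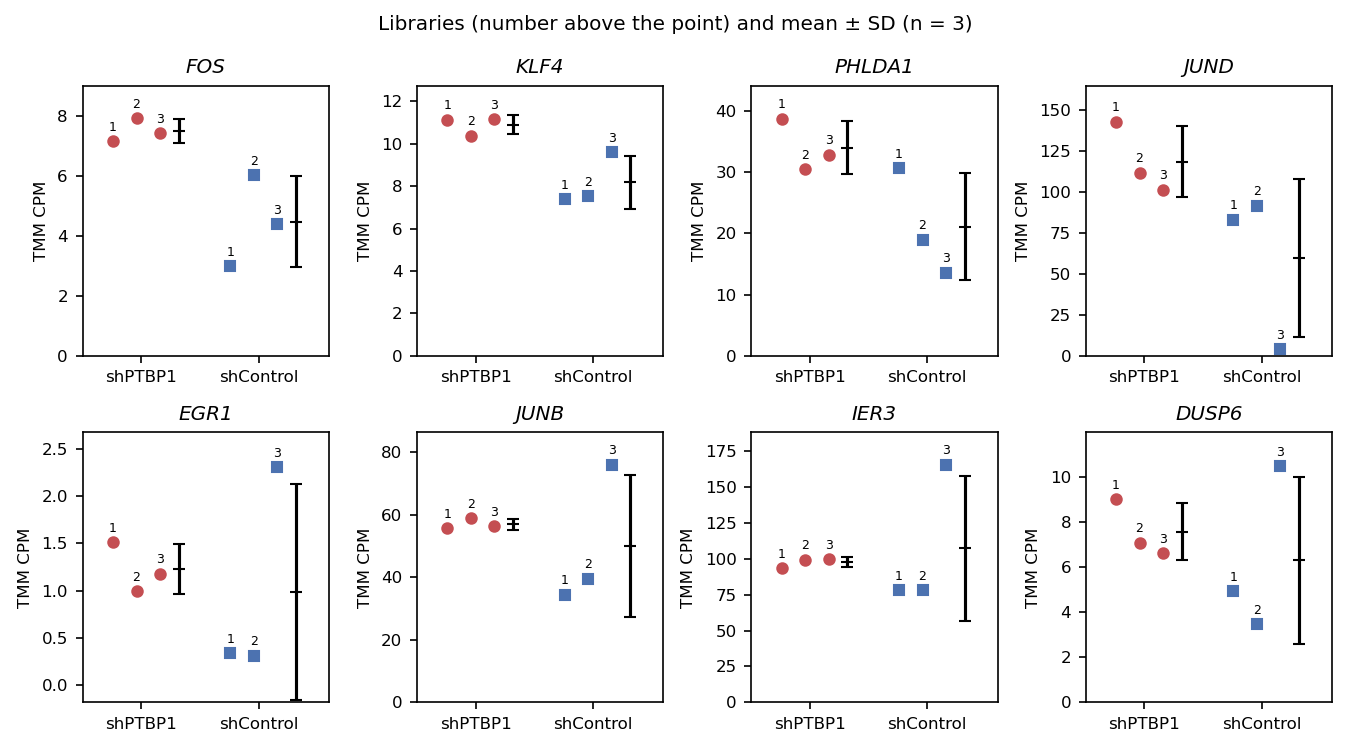
TMM-scaled CPM of 8 of the genes, with shPTBP1 (circles) left of shControl (squares), the library number above each point, and the mean ± SD (n = 3) as a black bar. For FOS, KLF4 and JUND every shPTBP1 point is above every shControl point, and in EGR1, JUNB, IER3 and DUSP6 shControl 3 is the highest of the 6 and shControl 1 and 2 are the lowest.

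Among the 7 other targets, 6 passed the filter, 0 had an adjusted p under 0.05 and 1 an unadjusted one in edgeR, beside 0.0309% and 5.69% of all genes tested. The unadjusted count was 2 of the 6 in the libraries numbered 1 and 2, beside 17.7% of all genes, and 2 without shControl 3, beside 16.6%. The gene at an unadjusted p under 0.05 with all 6 libraries was PHLDA1 (chr12:76025447-76033932), a pleckstrin-homology-like protein induced by growth factors, with 38.8, 30.5 and 32.9 CPM in shPTBP1, against 30.7, 19.0 and 13.6 CPM in shControl. The groups overlapped by a single pair, since shControl 1 was just above shPTBP1 2. Its log2 fold change came to 0.69 (SE 0.29, unadjusted p = 0.0482, adjusted p = 0.876 by edgeR). It was 0.46 without shControl 3, the lowest library (adjusted p = 0.393 by edgeR).

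IER3 (chr6:30743199-30744548), a small protein that prolongs ERK activity and modulates apoptosis, had 93.5, 99.2 and 99.8 CPM in shPTBP1, against 78.1, 78.0 and 165 CPM in shControl. The shPTBP1 libraries lay above shControl 1 and 2 and below shControl 3. Over all 6 libraries the log2 fold change was -0.14 (SE 0.29, adjusted p = 0.988 by edgeR), and 0.32 without shControl 3 (adjusted p = 0.154 by edgeR), so its sign depended on that library.

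IER5 (chr1:181088712-181092899), an immediate early protein that activates the heat shock factor HSF1, had 128, 124 and 121 CPM in shPTBP1, against 117, 118 and 93.8 CPM in shControl. The groups did not overlap, and shControl 3 was the lowest. The log2 fold change was 0.19 (SE 0.12, adjusted p = 0.953 by edgeR), and 0.086 without shControl 3 (adjusted p = 0.654 by edgeR). IER2, a nuclear immediate early protein, had a log2 fold change of 0.26 and 56.1 to 93.9 CPM, lowest in shControl 1 and highest in shControl 3. EPHA2, an ephrin receptor, and LIF, a cytokine, had log2 fold changes of -0.015 and -0.0069.

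The groups did not overlap in CPM, with shPTBP1 above, in 5 of the 36 genes, FOS, KLF4, JUND, IER5 and SPRY1, beside 6.49% of all genes tested. They did not overlap with shPTBP1 below in 0 of the 36, beside 5.46% of all. A single library at least 2-fold above the other 5 occurred in 0 of the 36, beside 2.56% of all genes. A single library at least 2-fold below the other 5 occurred in 3 of the 36, JUND, SPRY1 and FOSL1, beside 10.6% of all. In 21 of the 36 genes (58.3%) the library shControl 3 was the highest or the lowest of the 6, against 43.6% of all genes tested. It was the highest in 9 genes and the lowest in 12. The library shControl 1 was the highest in 6 of the 36 and the lowest in 9. Over all 19393 genes tested, shControl 3 was the highest in 4531 and the lowest in 3918. For shControl 1 these counts were 3997 and 4098, so shControl 3 was not the only control library often at an end.

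**Figure D4:**
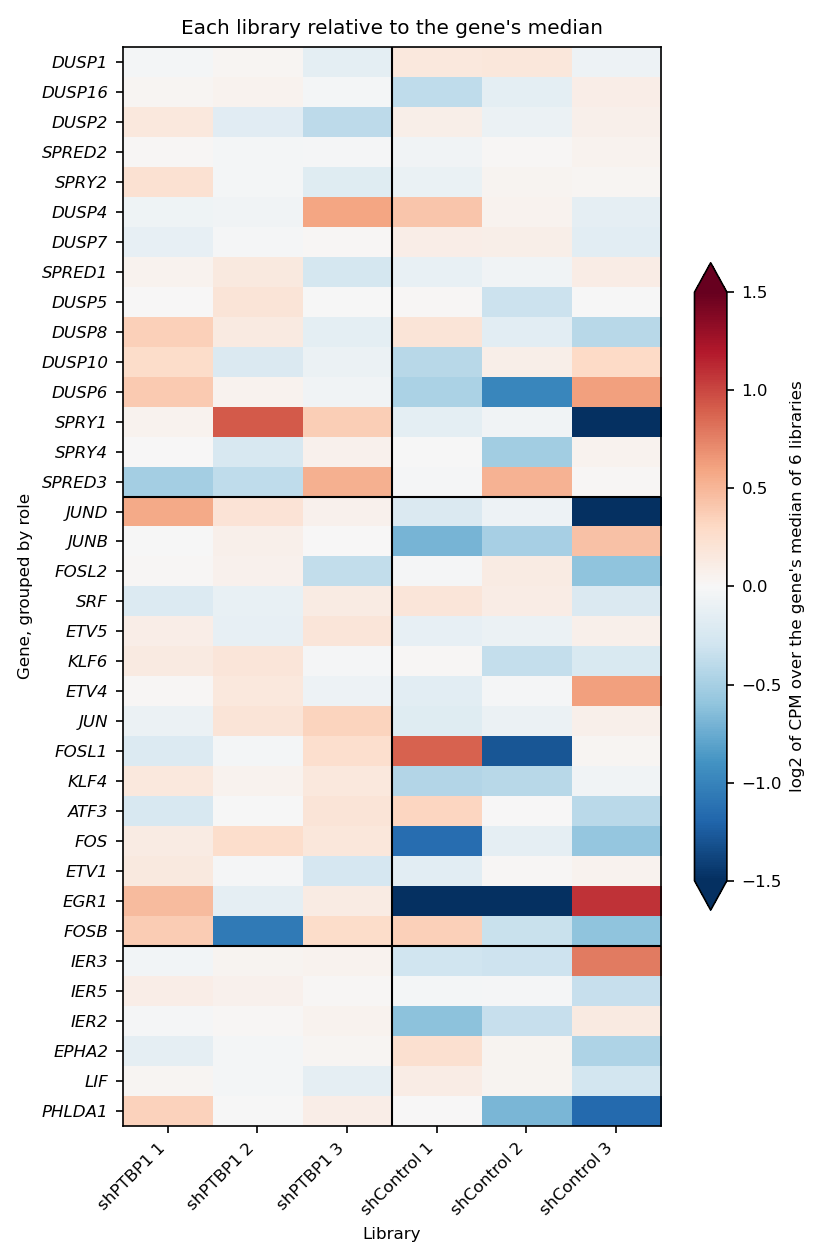
Log2 ratio of each library's CPM to the gene's median over the 6 libraries, for the 36 genes by role, with shPTBP1 1 to 3 left of shControl 1 to 3 and colours saturated at the ends of the scale. The column of shControl 3 holds the highest or the lowest value in 21 of the 36 genes, among them low values for JUND and SPRY1 and high values for EGR1 and IER3.

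The libraries numbered 1 and 2 gave a different count. In these 4 libraries 0 of the 36 genes passed the adjusted threshold in edgeR, beside 63 of 19733 or 0.319% of all genes, and the smallest adjusted p was 0.124, for JUNB. At an unadjusted p under 0.05 there were 9 of the 36 (25%), beside 17.7% of all genes. Levels were higher in shPTBP1 for 8 of these, EGR1, DUSP6, JUND, JUNB, KLF4, IER2, DUSP16 and IER3, and lower for SRF. The median log2 fold change of the 36 was 0.15 in this fit. In most of these genes shControl 3 did not follow shControl 1 and 2. Its level was nearer to the mean of shPTBP1 1 and 2 than to that of shControl 1 and 2 in 8 of the 9 genes, all but JUND. Over all genes at an unadjusted p under 0.05 in this fit that were also tested in the 6 libraries, the same held for 77.3%. For shPTBP1 3 it held in 7 of the 9, near the 69.3% of all such genes. Of the 3 genes found with all 6 libraries, KLF4 alone was among the 9. With number 3 against numbers 1 and 2 as a covariate, 0 of the 36 had an adjusted p under 0.05 in edgeR and 3 an unadjusted one. Over all 19393 genes in that fit these counts were 3 and 1286.

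**Figure D5:**
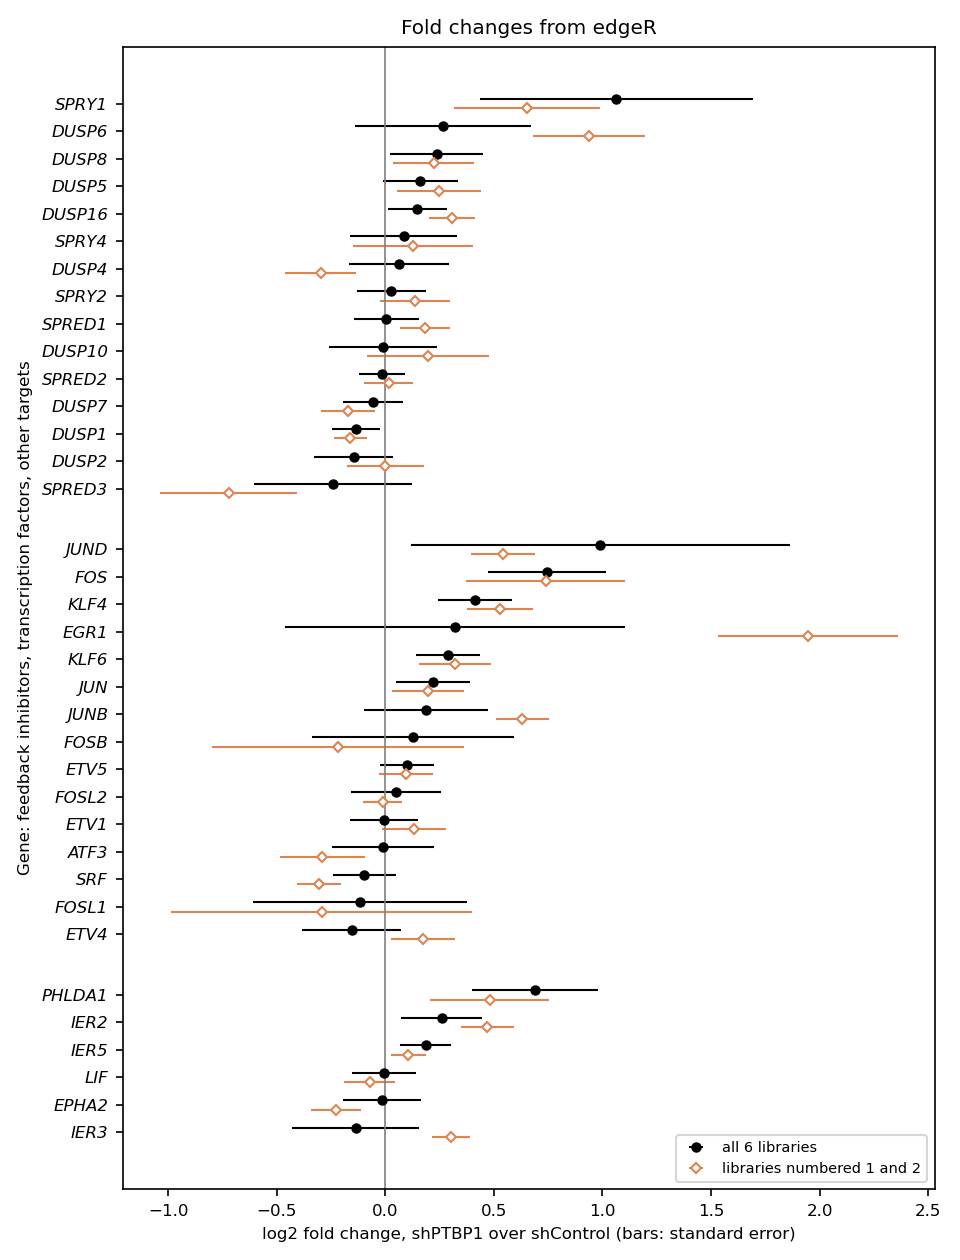
Log2 fold change of shPTBP1 over shControl with its standard error from edgeR, for the 36 genes by role, from all 6 libraries (filled circles) and from the libraries numbered 1 and 2 (open diamonds). The values of EGR1 (0.32 and 1.95), JUNB (0.19 and 0.63) and DUSP6 (0.27 and 0.94) are larger in the libraries numbered 1 and 2, and that of IER3 moves across 0.

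The rest of the pathway was counted in the same fit. Of 43 cascade genes, from receptors through RAS, RAF and MEK to ERK and the kinases below it, 42 were tested. In edgeR 0 passed the adjusted threshold and 5 were at an unadjusted p under 0.05 (11.9%), 2 with higher and 3 with lower levels in shPTBP1, beside 0.0309% and 5.69% of all genes tested. The unadjusted count was 9 of 42 in the libraries numbered 1 and 2, 5 higher and 4 lower, beside 17.7% of all genes, and 11 without shControl 3, beside 16.6%. LAMTOR3, the scaffold that holds MEK and ERK at late endosomes, had 15.8, 14.7 and 14.5 CPM in shPTBP1, against 42.3, 39.7 and 28.6 CPM in shControl, with no overlap. This was a log2 fold change of -1.30 (SE 0.18, adjusted p = 0.140 by edgeR). In the libraries numbered 1 and 2 it was -1.43 (adjusted p = 0.0483 by edgeR), which passed the threshold, as it did without shControl 3 (adjusted p = 0.0178 by edgeR), where 0.674% of all genes passed it. The next 3 by unadjusted p were SOS2, a RAS exchange factor, at 0.47 (adjusted p = 0.725 by edgeR), the receptor FGFR1 at 0.37 (adjusted p = 0.868 by edgeR) and the receptor IGF1R at -0.37 (adjusted p = 0.870 by edgeR).

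Of 9 tested partners of SRF and of the ETS factors, 0 were past the adjusted or the unadjusted threshold in edgeR, and of 7 other DUSP and SPRY genes also 0, beside 0.0309% and 5.69% of all genes tested. In the libraries numbered 1 and 2, 1 of the 9 partners and 3 of the 7 other DUSP and SPRY genes were at an unadjusted p under 0.05, beside 17.7% of all genes. Without shControl 3 these counts were 1 and 2, beside 16.6%. Of 25 other immediate early genes, 0 were past the adjusted and 2 past the unadjusted threshold in edgeR, beside the same shares of all genes. The unadjusted count was 9 of 25 in the libraries numbered 1 and 2, beside 17.7% of all genes. Of these 9, 5 had higher and 4 lower levels in shPTBP1. Without shControl 3 it was also 9, beside 16.6%, so both counts differed from the 2 with all 6 libraries. With all 6 libraries both genes had lower levels in shPTBP1: the orphan nuclear receptor NR4A3 at a log2 fold change of -0.44 (adjusted p = 0.725 by edgeR) and the kinase SGK1 at -0.31 (adjusted p = 0.822 by edgeR). The median log2 fold changes were -0.011 for the cascade, 0.050 for the partners, -0.11 for the other DUSP and SPRY genes and -0.041 for the other immediate early genes, beside -0.013 over all genes tested.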

How the data were processed

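RNA sequencing of 3 shPTBP1 and 3 shControl libraries of MHCC97H cells was analysed at the level of genes. The authors deposited 1 table with an FPKM and a count per gene and library, and the submitters' processing notes name cutadapt 1.9, FastQC, HISAT2 2.2.1, StringTie and hg38. The deposited counts were treated as estimated counts, since 32.5% to 34.4% of those from 1 to 40 were multiples of 4, and were used as they stand. Divided by 4, the library totals are 17.2 to 21.3 times 1e6, and the cause of the multiples was not tested. Columns were assigned to groups by their names, and GO and KEGG annotation was not used here. Kit chemistry marks strand, but counting by strand is not stated.

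The test was the quasi-likelihood F test of edgeR 4.0.16, run in R 4.3.3 after TMM scaling, with Benjamini-Hochberg adjustment over 19393 genes and no covariate. Standard errors are the absolute log2 fold change over the square root of F. The listed genes and all gene lists were chosen with earlier results of these data known. Values in every library were given for genes at an unadjusted p under 0.05, with groups that did not overlap, among the 6 highest in FPKM, or with 1 library at least 2-fold from the other 5. DUSP6, EGR1 and MYC were described by library after their values were seen. In the cascade and the other lists, up to 4 genes per list were named by the smallest p. Alternatives were DESeq2 1.42.0, limma 3.58.1 on log2(FPKM + 1) and log2(FPKM + 0.1) for genes averaging 1 FPKM or more, no filter, no TMM, counts divided by 4, a replicate block, the libraries numbered 1 and 2, number 3 as a covariate, and leaving out each library. The script was tested on simulated data first. Tables and figures used Python 3.11.15, pandas 2.3.3, numpy 2.4.6 and matplotlib 3.10.9.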

Additional observations from a re-analysis of the deposited data

How the results depend on the processing

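No listed gene passed the adjusted threshold in edgeR or under any of the 15 alternatives, in which the smallest adjusted p was 0.0826, and 8 of the 11 genes shown by the naming rule kept the sign of their log2 fold change under every alternative that tested them (SPRY1 was not tested in limma). The count of all genes past the threshold, 6 in edgeR, was 165 in DESeq2, 63 in the libraries numbered 1 and 2, 3 with number 3 as a covariate, 0 with a replicate block and 2 to 136 when 1 library was left out, 136 without shControl 3. The count of listed genes at an unadjusted p under 0.05, 3 in edgeR, was 1 without TMM, 9 in the libraries numbered 1 and 2 and 0 to 9 when 1 library was left out. The count of cascade genes there, 5 in edgeR, was 3 in DESeq2, 2 with the replicate block, 9 in the libraries numbered 1 and 2 and 1 to 11 when 1 library was left out. Over all genes the unadjusted count was 1104 in edgeR, 1131 without TMM and 987 with the replicate block, each of 19393. It was 1365 of 30866 in DESeq2 and 3500 of 19733 in the libraries numbered 1 and 2. When 1 library was left out it was 763 of 20149 to 3351 of 20167. The median log2 fold change of the feedback inhibitors, 0.028, was -0.016 in limma on log2(FPKM + 0.1), 0.14 in the libraries numbered 1 and 2 and -0.016 to 0.087 when 1 library was left out. That of the transcription factors, 0.13, was 0.060 in limma on log2(FPKM + 1) and 0.046 to 0.18 when 1 library was left out. FOSL1 reversed, from -0.12, to 0.0050 and 0.078 in limma with a pseudocount of 1 and 0.1, to 0.12 with the replicate block and to 0.49 without shControl 1 (-0.51 to 0.49 when 1 library was left out). IER3 reversed, from -0.14, to 0.30 in the libraries numbered 1 and 2 and 0.32 without shControl 3 (-0.32 to 0.32), and JUNB, from 0.19, to -0.021 without shControl 1 (-0.021 to 0.62). Beyond the fewer samples of those fits, the cause was not tested. Same-numbered libraries deviated together with correlations of -0.0091, 0.16 and 0.083, so no pairing by number was assumed, although both libraries numbered 3 share the low red cell signal, and the replicate block gave 2 listed genes at an unadjusted p under 0.05.

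There were 3 libraries per group, and in EGR1, JUND and SPRY1 shControl 3 lay far from shControl 1 and 2. Standard errors of these genes were 0.63 to 0.87 on the log2 scale. Other genes split the libraries otherwise. MYC, of the other immediate early genes, had 9.47, 9.51 and 255 CPM in shPTBP1, against 7.78, 190 and 234 CPM in shControl. There shControl 1 was far from shControl 2, which also limits the fit of the libraries numbered 1 and 2. Differences of the size of those standard errors, and also the larger fitted values of 0.99 for JUND and 1.06 for SPRY1, could not be told from the spread. EGR1 had under 30 counts in shControl 1 and 2, and FOSB, SPRED3 and SPRY1 were also low. If each fragment added 4 counts, counting error is larger than the counts imply.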
